A study of Mus musculus with 15 samples.

Results

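Ovgp1-high and Ovgp1-low ovaries are the 5 libraries with the most and the 5 with the fewest normalized counts of Ovgp1 among the 15 ovary libraries of the series, so that 10 of 15 libraries were compared and 5 in the middle were left out. Each library is the ovarian mRNA of 1 female mouse, 6 months old and in estrus. The 7 HSD17B1-KI females are homozygous for a knock-in that replaces a catalytic serine of HSD17B1, the enzyme that makes estradiol from estrone, with alanine in the mouse's own Hsd17b1 gene, and the 8 WT females do not carry it. The Ovgp1-high side held WT 1, WT 8, HSD17B1-KI 1, WT 4 and HSD17B1-KI 3, and the Ovgp1-low side held HSD17B1-KI 4, WT 5, WT 3, WT 6 and HSD17B1-KI 7, so that both sides had 2 HSD17B1-KI and 3 WT mice. Values are given in these orders below, as normalized counts, which are the reads of a gene divided by 1 size factor per library. The study set out to compare the genotypes, and neither its labels nor its methods say that oviduct was part of any sample.

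Ovgp1 encodes oviductin, a glycoprotein that nonciliated cells of the oviduct epithelium secrete onto the egg and the embryo. The mouse ovary lies in a bursa against the fimbriated opening of the oviduct, whose lining is an epithelium of secretory cells and of multiciliated cells that move the egg. Foxj1 is the transcription factor that turns on the genes of motile cilia, and Pax8 is a transcription factor of Muellerian duct epithelium, from which the oviduct forms, and is also found in the rete ovarii, a remnant of tubules at the hilum of the ovary. A motile cilium is built on 9 outer doublets of microtubules and a central pair, with dynein arms as motors and radial spokes and nexin links between the parts. Intraflagellar transport proteins build both motile cilia and the single primary cilium that most cells carry.

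The libraries were selected on Ovgp1, so that its counts are no result. Ovgp1 (ENSMUSG00000074340, chr3:105973711-105987423 on GRCm38) had 203321, 127890.0, 14963, 14952 and 14055 normalized counts on the high side and 278, 178, 166, 109.9 and 108 on the low side. The last library inside the high side had 14055 and the first outside it, WT 7, had 12695, and at the low border HSD17B1-KI 4 had 278 against 300.2 in HSD17B1-KI 2. The high border therefore does not part unlike libraries, while the counts drop from 4185 in HSD17B1-KI 6 to 321 in HSD17B1-KI 5 within the middle. WT 1 and WT 8 stood far above the other libraries of the high side, which was described with and without them. The comparison of the sides is a description with no test, since all genes that vary with Ovgp1 between mice were in effect chosen with it.

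Stretches of 100 bases before the start of 4 genes of motile cilia are shown because they hold the letters GTTGCC, read as GGCAAC on the other strand, which are the core of the X-box that RFX factors of ciliated cells bind. They belong to the 4 genes of motile cilia with the widest gap between the sides among those that did not overlap, held the letters before their start, and are described further below. Capitals mark the letters.
Cdhr3: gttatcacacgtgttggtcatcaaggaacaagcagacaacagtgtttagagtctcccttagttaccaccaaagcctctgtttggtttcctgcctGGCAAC
Sntn: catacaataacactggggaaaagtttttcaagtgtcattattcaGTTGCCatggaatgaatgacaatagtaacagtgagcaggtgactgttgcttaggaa
Dynlrb2: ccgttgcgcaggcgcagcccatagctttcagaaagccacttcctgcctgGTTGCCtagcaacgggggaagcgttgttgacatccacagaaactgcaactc
Drc1: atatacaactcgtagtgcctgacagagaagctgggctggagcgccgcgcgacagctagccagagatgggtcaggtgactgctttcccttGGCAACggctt
They were read in the direction of the gene from the RefSeq table of build GRCm38.p6 and lie at chr12:33092876-33092975, minus strand (Cdhr3), chr14:13670766-13670865, plus strand (Sntn), chr8:116504915-116505014, plus strand (Dynlrb2) and chr5:30281293-30281392, plus strand (Drc1). Of 84 listed genes of motile cilia, 69 had an entry in that table, and 32 of the 69 held GTTGCC on either strand between 250 bases before and 50 after a start, which is 46.4%, against 14.1% of 27025 genes. The longer spelling GTTGCCNNG, which lies within the hits of the first, was in 22 of the 69 (31.9%) and in 5.74% of all genes. The forkhead letters GTAAACA were in 4 of the 69 (5.80%) and in 4.05% of all genes. Of 22 genes of intraflagellar transport with an entry, 11 held GTTGCC. These matches are descriptions of letters and show no binding.

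Foxj1 and Pax8, which the ranking did not use, separated the sides without overlap. Foxj1 (ENSMUSG00000034227, chr11:116330704-116335399) had 9884, 9230.0, 3877, 118 and 2361 normalized counts in the high libraries and 48.7, 23.6, 4.40, 22.5 and 9.76 in the low ones. The high side was split, since WT 4 had 118 and the other 4 at least 2361. Pax8 (ENSMUSG00000026976, chr2:24420560-24475599) had 2293, 1870.4, 232, 331 and 253 normalized counts on the high side and 34.4, 26.7, 15.4, 9.99 and 9.76 on the low side, and 2 of the 15 libraries, WT 1 and WT 8, were above WT 4. The difference of mean log2(normalized count + 1) between the sides, the measure used for all differences below, was 7.16 for Foxj1 and 5.08 for Pax8. Without WT 1 and WT 8 it was 5.87 and 3.90. In the middle libraries, WT 7, WT 2, HSD17B1-KI 6, HSD17B1-KI 5 and HSD17B1-KI 2, Foxj1 was at 1583, 1721, 176, 109.8 and 54.9 and Pax8 at 95.1, 126, 135, 109.8 and 18.6 normalized counts.

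**Figure D1:**
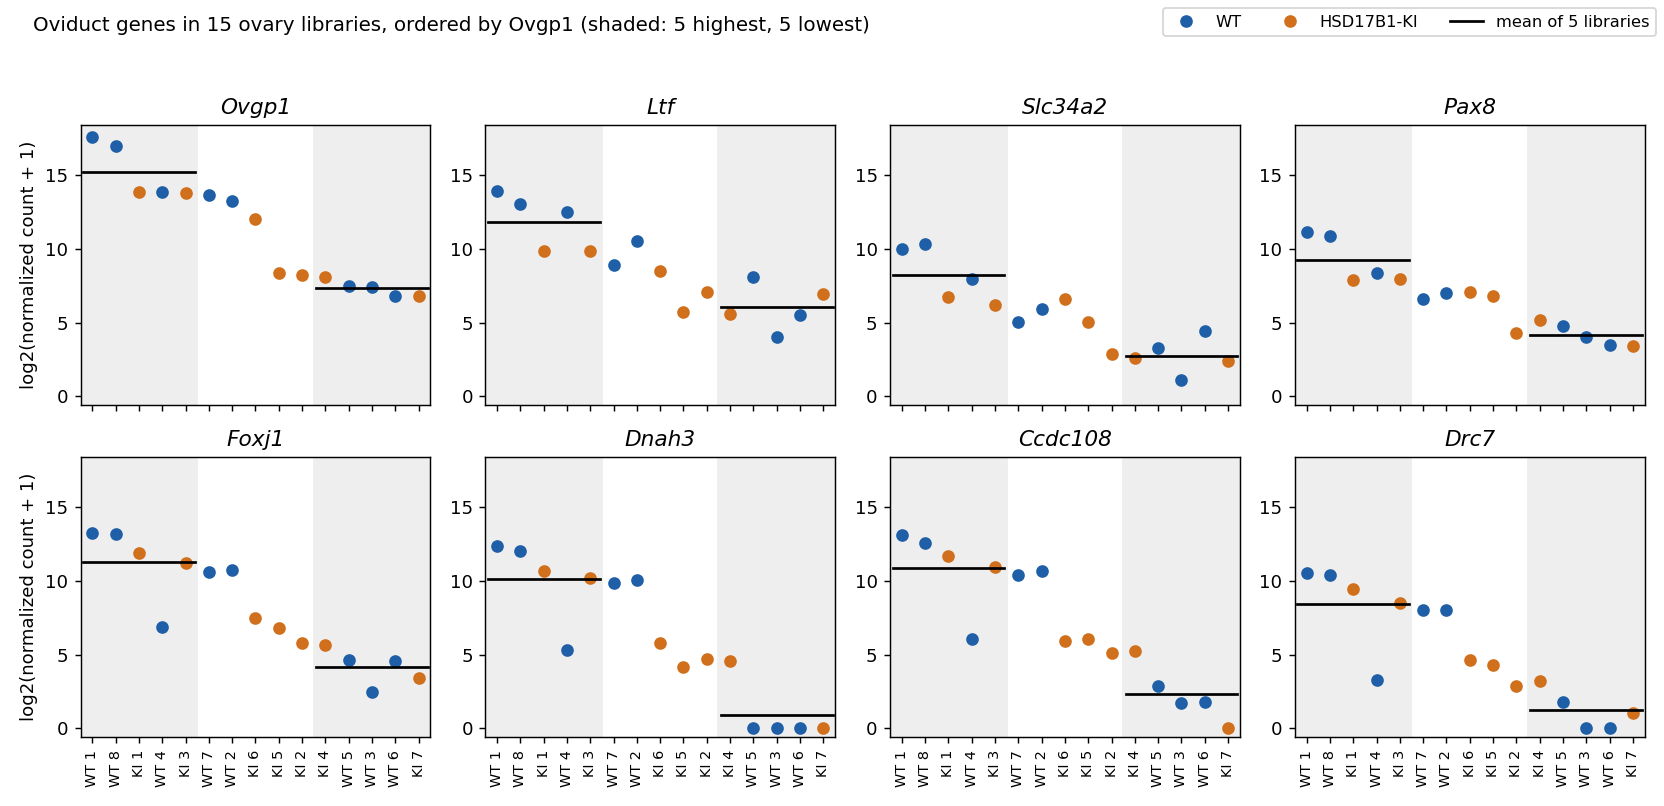
Log2(normalized count + 1) of 8 genes in each of the 15 libraries, ordered from the highest to the lowest Ovgp1, with the 5 Ovgp1-high and 5 Ovgp1-low libraries shaded and their means as lines. Ovgp1 was used to order the libraries, and WT 4 is near the other high libraries in the upper row (secretory genes and Pax8) and closer to the low libraries in the lower row (genes of ciliated cells).

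All 15 libraries carried the markers of ovary that their label names. Inha, the inhibin alpha subunit of granulosa cells, was between 46850.3 and 148893 normalized counts, and Gdf9, a growth factor of the oocyte, between 1777 and 3425. Ovgp1 made up at most 0.451% of the normalized total of a library, and the listed genes of motile cilia 0.0403 to 0.369% on the high side and 0.0295 to 0.0339% on the low side. Recovered reads numbered 26544745 to 69972608 on the high side and 37987574 to 59515490 on the low side, and the library with the most Ovgp1, WT 1, was the shallowest of all. In RNA of a whole organ, fewer cells of a type and less RNA per cell cannot be told apart. A point mutation leaves no mark in a table of counts, so that the genotype labels were not checked here.

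Among the 21525 genes whose normalized counts averaged 2 or more across all mice, 729 (3.39%) had all 5 high libraries above all 5 low ones and a difference of at least 1, which is a doubling, and 59 (0.274%) had the reverse. Without WT 4 the higher genes numbered 1184, and without WT 1, WT 5 or HSD17B1-KI 7 the lower ones numbered 169, 94 and 189. Sides with fewer libraries part without overlap more easily, so part of such a rise comes with the rule. Leaving the size of the difference aside, 993 genes (4.61%) were higher and 569 (2.64%) lower without overlap. The median difference over all 21525 genes was 0.02, with 11237 of them above 0. Genes with a wide gap were thus mainly higher on the high side, and 271 of the 729 differed by at least 10-fold. The 729 genes together took 0.388 to 2.21% of the normalized total in the high libraries and 0.127 to 0.153% in the low ones. Ovgp1, which defined the sides, is counted among the 729 and in these shares, and was 0.451% of the total in WT 1. Of them, 173 averaged under 2 normalized counts on the low side and were tested only because of the other libraries. Of the 729 genes, 71 were in the gene lists described next and 658 were in none of them. None of the 59 lower genes was in a list, from which nothing is read beside 0.274% of all genes.

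Genes of the secretory epithelium had a median difference of 2.88 over 14 tested of 14 listed. Of them, 6 were higher without overlap and by at least 1, beside 3.39% of all genes. The median was 1.15 without WT 1 and WT 8. On the low side 3 of the 14 averaged under 2 normalized counts, and 2 of these had no read. Ltf encodes lactoferrin, an iron-binding protein of genital tract secretions. It had 15894, 8560.0, 934, 5914 and 924 normalized counts on the high side and 47.9, 276, 15.4, 45 and 123 on the low side, a difference of 5.81. Slc34a2, a sodium and phosphate transporter of the apical membrane, was at 1025, 1297, 105, 244 and 73.5 against 5.04, 8.65, 1.10, 20.0 and 4.34. For both genes WT 4 lay between WT 1 and WT 8 above it and HSD17B1-KI 1 and HSD17B1-KI 3 below it. Pax8, also on this list, is given above, and Sox17, a transcription factor of Muellerian epithelium that endothelium also expresses, was higher by 1.09, with 889.6 to 3389 against 664 to 728 normalized counts. Sprr1a, a cornified envelope protein, went the other way by -0.07 at counts of at most 16.2.

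The Dcpp genes, which encode secreted proteins that reach the embryo in the mouse oviduct, were not a matter of the whole high side. Dcpp1 had 3235 normalized counts in WT 1, 1046 in WT 8 and at most 2.44 in the other 13 libraries, with no read in WT 4 or in any low library. Its mean on the high side was at least 1411-fold higher than on the low side, for which 3 reads over the 5 libraries were taken as the floor, and this ratio rests on WT 1 and WT 8. Dcpp2 had 1336 and 642 normalized counts in these libraries and no read in the low ones, and Dcpp3 had 672 and 294 against 2.36 to 6.51 on the low side. The 3 genes are near copies of each other, and reads may have been divided between them.

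Among the regulators of multiciliation, 12 of 12 were tested, and their median difference was 3.13. Of them, 4 were higher without overlap and by at least 1 (beside 3.39% of all genes), Foxj1 among them. On the low side 3 of the 12 averaged under 2 normalized counts and were tested only because of the other libraries. Myb, a transcription factor that acts early in cells that will form many cilia, had 919.9, 566, 268, 94.7 and 184 normalized counts on the high side and 10.1, 5.51, 4.40, 16.2 and 13 on the low side. Trp73, which encodes the p73 factor of multiciliated cells, was at 829.9, 713, 297, 35.6 and 197 against 14.3, 17.3, 19.8, 9.99 and 22.8. For both, WT 4 was the lowest of the high libraries and still above all low ones. Ccdc78, a component of the deuterosomes where centrioles are multiplied, overlapped between the sides, because WT 4 had 17.1 normalized counts and HSD17B1-KI 4 had 19.3, while the other 4 high libraries had at least 484. The difference of Ccdc78 was 5.77.

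Subunits of axonemal dynein, the motor of the motile cilium, had a median difference of 3.37 over 17 of 17 listed. Of the 17, 6 were higher without overlap and by at least 1, beside 3.39% of all genes. Dnah3, a heavy chain of the inner dynein arms, had the largest difference of all genes named here, 9.22, with 5305, 4224, 1652, 39.2 and 1181 normalized counts on the high side. On the low side HSD17B1-KI 4 had 22.7 and the other 4 libraries had no read. Dnah5, a heavy chain of the outer arms, had 7114, 7521, 2724, 33.5 and 2338 against 47.9, 7.08, 7.70, 7.50 and 9.76, and of the high libraries WT 4 alone lay among the low ones, which made the sides overlap. Dynlrb2, a light chain, differed by 6.67 (2792, 1717, 956, 20.7 and 454 against 13.4, 6.29, 4.40, 2.50 and 1.08) and Dnah12, an inner arm heavy chain, by 5.34.

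Not all dyneins parted the sides without overlap. Dnah2, singled out after its values were seen, had 2347 to 4542 normalized counts on the high side. On the low side it had 299.8, 598, 149.6, 135 and 3208. Of the low libraries, HSD17B1-KI 7 alone was within the range of the high ones, and the others were below it. Dnah7b, Dnah8 and Dnal1 differed by 0.36, 0.46 and 0.46, and the ranges of the sides overlapped for each.

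Factors that assemble dynein arms in the cytoplasm or dock them on the doublets had a median difference of 1.85 over 12 of 13 listed. Of the 12, 5 were higher without overlap and by at least 1, beside 3.39% of all genes. Armc4, a part of the docking complex of the outer arm, had 1045, 976, 411, 17.1 and 241 normalized counts against 12.6, 4.72, 2.2, 7.50 and 2.17. Ccdc151, of the same complex, differed by 4.97, and the assembly factors Dnaaf1 and Zmynd10 by 4.88 and 4.25. WT 4, with 17.1 for Armc4, was again the lowest of the high libraries and next to the low ones. Spag1, another assembly factor, was the exception of the list with a difference of -0.69 and values of 833 to 2804 on the high side and 969 to 3438 on the low side.

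Proteins of the radial spokes, the nexin links and the central pair gave a median difference of 3.30 over 21 of 21. Of these, 14 were higher without overlap and by at least 1, beside 3.39% of all genes. Drc7, of the nexin and dynein regulatory complex, had 1516, 1383, 709.6, 8.55 and 364 normalized counts against 8.40, 2.36, 0, 0 and 1.08. Spag17 and Hydin, both of the central pair, differed by 6.25 and 6.01, where Hydin overlapped because WT 4 had 28.5 and HSD17B1-KI 4 28.6. Rsph4a, a radial spoke head protein, was at 2578, 2591, 856, 29.9 and 696 on the high side and at most 17.6 on the low side. Drc1, whose upstream letters are printed above, differed by 5.64 with 15.7 to 1379.8 against 4.40 to 9.99 normalized counts. The smallest difference of the list was that of Rsph3a, at 0.11.

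The proteins inside the doublets and the other genes of motile cilia had a median difference of 3.23 over 33 of 33. Of these, 20 were higher without overlap and by at least 1, beside 3.39% of all genes. Cfap65, under its older symbol Ccdc108 in the table, is a cilia and flagella associated protein and had 9054, 6129, 3267, 64.1 and 1930.4 normalized counts against 37.0, 6.29, 2.2, 2.50 and 0, a difference of 8.55. Cdhr3, a cadherin-like protein of ciliated cells, was at 3428, 3319, 1279.9, 20.7 and 839 on the high side and at most 12.6 on the low side. Sntn, which encodes sentan of the ciliary tip, had 2138, 1531, 685, 7.84 and 287 normalized counts on the high side and no read in 3 of the 5 low libraries. Tmem212 differed by 6.95. Mlf1 had the smallest difference, 0.22.

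Taking the 4 lists of motile cilia as 1 set, 84 genes were listed, 83 were tested, and 45 of the 83 (beside 3.39% of all genes) were higher without overlap and by at least 1, none lower. The median difference was 3.23 against 0.02 for all genes, and it was 2.30 without WT 1 and WT 8 and 3.89 without WT 4. Within HSD17B1-KI alone, for the 3 mice with the most and the 3 with the least Ovgp1, it was 2.08, and within WT alone 3.42. Of the 83, 82 had a difference above 0, Spag1 being the other one, and 1 averaged under 2 normalized counts on the low side.

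Genes of intraflagellar transport and of the primary cilium had a median difference of 0.27 over 25 of 25, and 22 of them were above 0, as were 11237 of all 21525 genes. The median was 0.12 without WT 1 and WT 8. None reached a difference of 1, and 5 were higher without overlap (beside 4.61% of all genes). Ift88, a core protein of the transport train, had the largest difference, 0.81, with 2619, 2615, 1991, 1398 and 1623 normalized counts against 1115, 1258, 1144, 977 and 1197. Bbs7, of the BBSome that carries membrane proteins in cilia, and Ift81 differed by 0.66 and 0.59, and Ift57 by 0.47 with overlap. The sides differed by less than 2-fold for each of the 25 genes.

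Genes of epithelial adhesion, keratins and epithelial transcription factors had a median difference of 1.94. Of 21, 15 were higher without overlap and by at least 1, beside 3.39% of all genes. Leaving the size aside, 16 were higher without overlap, beside 4.61% of all genes. Prom1, a glycoprotein of apical membrane protrusions, had 1931, 3144, 334, 267 and 374 normalized counts against 48.7, 73.9, 60.5, 58.7 and 94.3. Grhl2, a transcription factor of epithelial junction genes, was at 1015, 942, 244, 189 and 176 against 45.4, 51.1, 35.2, 26.2 and 31.4. Rab25, a small GTPase of apical recycling, and Ehf, an epithelial ETS factor, differed by 3.24 and 3.14. For these 4 genes WT 4 was within the range of HSD17B1-KI 1 and HSD17B1-KI 3 or within 1.5-fold of it. Keratins that the surface of the ovary and its follicles also express had smaller differences, 0.58 for Krt7, 1.21 for Krt8 and 1.39 for Krt18, which were picked after their values were seen.

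The patterning genes of the Muellerian duct differed less, with a median of 0.61 over 8 tested of 10 listed. Only 1 was higher without overlap and by at least 1, beside 3.39% of all genes, so nothing is read from this count. That gene was Pax2, a transcription factor of the duct, with 361, 334, 20.9, 119.7 and 17.6 normalized counts against 14.3, 16.5, 9.90, 16.2 and 11.9. Wnt7a, a signal of the duct epithelium, was at 200.3, 49.6, 6.97, 64.8 and 5.86 against 7.56, 2.36, 3.30, 1.25 and 7.59, with WT 1, WT 4 and WT 8 above all low libraries and both HSD17B1-KI libraries within their range. Hoxa9 and Emx2 differed by 0.73 and 0.62 with overlap. Hoxd9 was the lowest of the list at -0.33, and Lhx1 and Hoxa11 had too few reads.

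**Figure D2:**
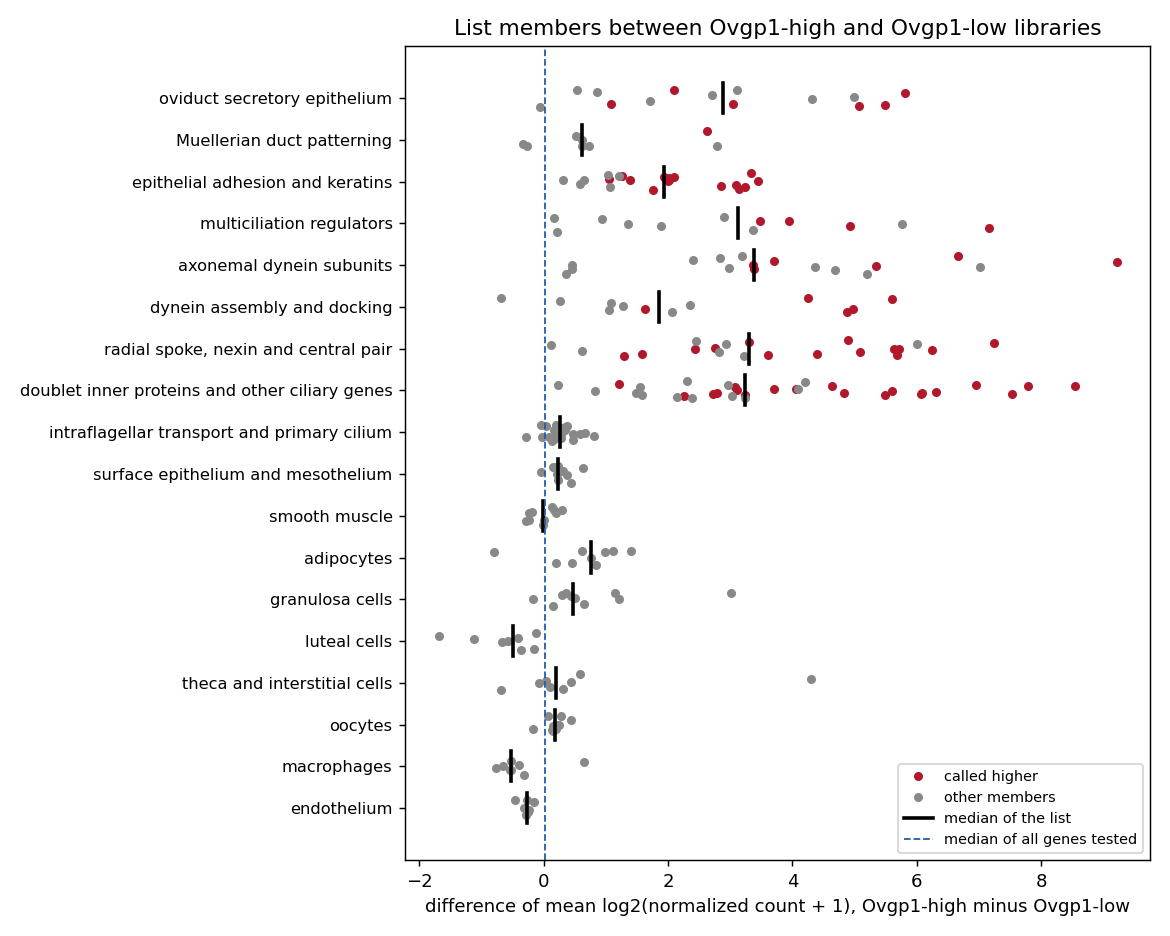
Difference of mean log2(normalized count + 1) between the 5 Ovgp1-high and the 5 Ovgp1-low libraries for each tested member of 18 gene lists, with the median of each list as a black bar and that of all genes as a dashed line. Red points are members called higher, with all high libraries above all low ones and a difference of at least 1. They occur in the upper 8 lists, which are those of the oviduct, epithelium, multiciliation and motile cilia. Nothing is read from their absence in the other lists, since only 3.39% of all genes were called higher.

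Lists for other cells of the ovary and the tissue around it had no member that was higher or lower without overlap and by at least 1. Of all genes 3.39% were so higher and 0.274% lower. Each of these lists had only 7 to 10 tested genes, so nothing is read from their counts of 0. Surface epithelium and mesothelium had a median difference of 0.23 over 9 of 9, with Rspo1, a Wnt agonist, at 698 to 1488 against 536 to 745 and Msln, mesothelin, at 1498 to 2522 against 1167 to 1543 normalized counts. Smooth muscle, a layer of which wraps the oviduct, had a median of -0.01 over 10 of 10, and its sign was the opposite under upper quartile scaling (0.02). Smtn and Actg2, contractile proteins of smooth muscle, were at -0.28 and -0.24 with overlapping ranges. Adipocyte genes had a median of 0.77 over 9 of 9, and Adipoq, the adipocyte hormone adiponectin, had 214 to 2347 normalized counts against 47.7 to 1587, so that each side held libraries high and low in fat. The adipocyte median was 0.12 without HSD17B1-KI 7, 0.45 without WT 4, 1.16 without WT 6 and 1.20 without HSD17B1-KI 1.

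Granulosa cell genes had a median difference of 0.46 over 10 of 10 and theca and interstitial genes one of 0.20 over 8 of 8. The granulosa median was 0.26 without HSD17B1-KI 4, 0.29 without WT 4 and 0.77 without HSD17B1-KI 7, and the theca median 0.11 without WT 3 and 0.31 without WT 1. Single genes of these lists varied widely within both sides. Grem1, a BMP antagonist of the cumulus, had 451, 1794, 1719, 4257 and 1179 normalized counts against 134, 226, 40.7, 28.7 and 5309. Cyp17a1, the enzyme that makes androgens in theca cells, was at 2967, 21605, 52598, 14130.2 and 56551 against 224, 6322, 107, 141 and 41683, with HSD17B1-KI 7 of the low side above 3 of the 5 high libraries. Luteal genes had a median of -0.50, and all 8 were lower on the high side but overlapped. Star, which brings cholesterol into the mitochondrion, was at 18097, 5455, 27217, 5151 and 28525 against 73441, 41061, 47695, 40363 and 23289.5. Oocyte genes had a median of 0.17 over 10 of 10, the widest being Oosp1 at 0.44.

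Macrophage genes were lower on the high side, with a median of -0.53 over 8 of 8 and 4 of the 8 lower without overlap (beside 2.64% of all genes), none by 1 or more. C1qa, a subunit of complement C1q that tissue macrophages make, had 2084, 2134, 2668, 2495 and 2607 normalized counts on the high side and 4237, 3322, 4589.8, 2827 and 2783 on the low side. Mrc1, the mannose receptor, was at 1327, 1331, 931, 1311 and 1747 against 2142, 2336, 1946, 2089 and 1847, and C1qb and C1qc were the other 2. Cd14, a receptor for endotoxin that epithelia also make, went the other way by 0.65, with WT 1 at 747. Endothelial genes had a median of -0.27 over 7 of 7. Of these Cdh5, the cadherin of endothelial junctions, alone was lower without overlap, at 4097 to 5177 against 5466 to 7370.2. Nothing is read from this count, which stands beside 2.64% of all genes. The part of macrophage, luteal or endothelial RNA in the other differences was not tested.

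By size of the difference, the 10 genes with the widest gap among non-overlapping genes that averaged 10 or more normalized counts were Dnah3, BC048546, Ccdc108, Slc23a1, Uox, Ovgp1, Pifo, Cdhr3, Wfdc18 and Fxyd4. The place of Ovgp1 among them is no result, since it defined the sides. Slc23a1, Uox, Pifo, Wfdc18 and Fxyd4 averaged under 2 normalized counts on the low side and reached the mean of 10 through the other libraries. The size of their differences therefore depends on the 1 added to each count. BC048546 had 42417, 47533, 5295, 422 and 5751 normalized counts on the high side and 52.9, 5.51, 19.8, 28.7 and 3.25 on the low side, a difference of 8.94. Slc23a1, a transporter of vitamin C, was at 1977, 1377, 389, 316 and 242 against at most 3.36, and Uox, the enzyme urate oxidase, at 2021, 1323, 240.4, 509 and 133 against at most 4.72. Wfdc18, of a family of secreted protease inhibitors, had 2688, 877, 268, 225 and 163 normalized counts against at most 3.75. Fxyd4, a regulator of the sodium pump, had 2065, 599, 40.6, 606 and 26.0 against at most 1.57 normalized counts.

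Pifo, a ciliary gene, lies next to Ovgp1 on chromosome 3, on the other strand, with 9534 bases between them. It had 1575, 1015, 459, 19.9 and 235 normalized counts on the high side and at most 1.57 on the low side. WT 4, with 19.9, had as much Ovgp1 as HSD17B1-KI 1 with 459, so that the counts of these neighbours did not keep 1 ratio between libraries.

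The 5 genes with the widest gap in the other direction, by the same rule, differed by less. Plekhg4, a guanine nucleotide exchange factor, had 888, 231, 95.2, 291 and 312 normalized counts on the high side and 1145, 889, 1760.2, 1950.2 and 968 on the low side. Abcb1b, a multidrug efflux pump, was at 24183, 4521, 15311, 5622 and 23759 against 56135, 30769, 48529.7, 52528 and 29710.5. Gm9553, Tmem72 and Islr2 differed by -2.25, -1.89 and -1.85. In the middle libraries Abcb1b was at 8493, 22828, 6523, 89119 and 18746, so that HSD17B1-KI 5 was above the range of the low side and the other 4 were below it.

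Secretory and ciliary genes did not go together in every library. HSD17B1-KI 1, WT 4 and HSD17B1-KI 3 had nearly the same Ovgp1, from 14055 to 14963 normalized counts, and can be set side by side. Compared with the mean log2 value of HSD17B1-KI 1 and HSD17B1-KI 3, the genes of motile cilia were lower in WT 4 by a median of -2.67, with 55 of 83 (66.3%) at least 4-fold lower and none 4-fold higher. Over all genes the median was 0.02, with 2.25% at least 4-fold lower and 0.771% at least 4-fold higher. Secretory genes had a median of 0.04 and epithelial genes 0.10 in the same comparison. The secretory median covers a spread, since 1 of its 14 genes was at least 4-fold lower in WT 4 and 2 at least 4-fold higher. Intraflagellar transport genes were at -0.19. This comparison sets 1 library against 2, was made after the values were seen, and has no replicate check. WT 4 also differs from the other 2 in genotype, which cannot be told apart here from other differences between the mice.

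**Figure D3:**
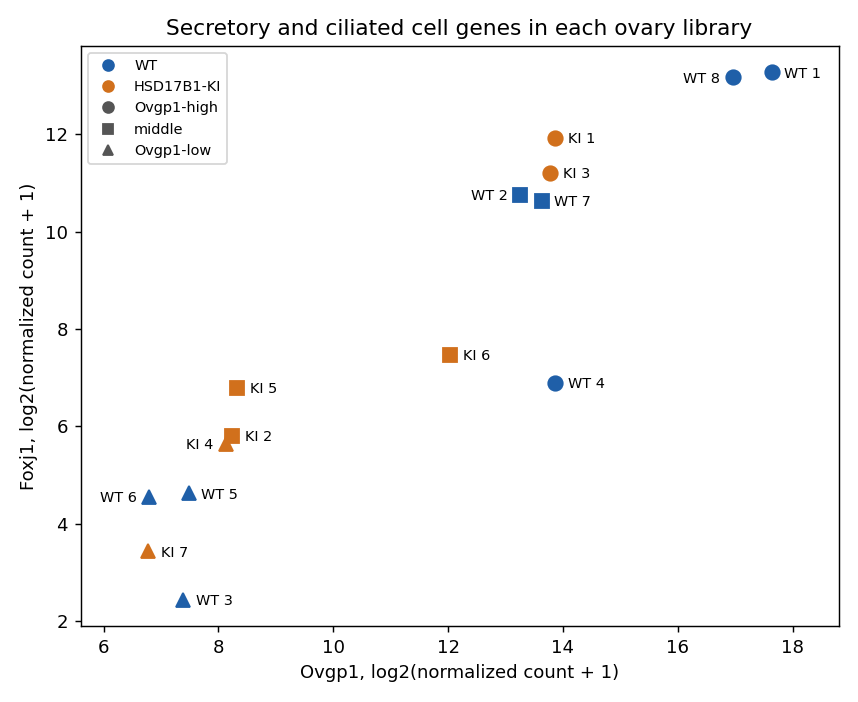
Log2(normalized count + 1) of Foxj1 against that of Ovgp1 in each of the 15 libraries, with the side as symbol and the genotype as colour. WT 4 lies at the Ovgp1 level of HSD17B1-KI 1 and HSD17B1-KI 3 and at the Foxj1 level of HSD17B1-KI 6 and HSD17B1-KI 5.

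The genes that parted these libraries most were named after their values were seen, as the 8 lowest and the 8 highest in WT 4 among the higher genes with a mean of at least 10. The lowest were 1700024G13Rik, Drc7, Sntn, Cdhr3, Tmem212, Ccdc153, Ccdc108 and 1600029I14Rik, all but 3 of them on the lists of motile cilia. Drc7 had 8.55 normalized counts in WT 4 against 709.6 and 364 in HSD17B1-KI 1 and HSD17B1-KI 3. Among the highest were S100g, 4833423E24Rik, Fxyd4, Lrrc26, Tmem132e, Mmp10 and Pigr. S100g, a calcium-binding protein of absorptive epithelia and uterus, had 132 normalized counts in WT 4 and 3.48 and 3.91 in the same libraries. Pigr, the receptor that carries antibodies across epithelia, had 194 against 19.7 and 14.3. S100g was also at 621 in WT 1 and 231 in WT 8, and at 70.2 in HSD17B1-KI 6 of the middle.

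WT 1 and WT 8 exceeded HSD17B1-KI 1 and HSD17B1-KI 3 for both kinds of genes. The median of their mean log2 value over that of the other pair was 2.29 for secretory genes, 1.73 for epithelial genes, 1.51 for the genes of motile cilia and 0.04 for all genes. Of the 83 genes of motile cilia 69 (83.1%) were at least doubled in this comparison, beside 2375 of all 21525 genes. At least 4-fold higher were 2 of the 83 (2.41%) and 7 of the 14 secretory genes, beside 2.62% of all genes. The pairs differ in genotype as well, so that genotype and the amount of epithelial RNA cannot be told apart here. Whether that RNA came from oviduct was not tested.

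**Figure D4:**
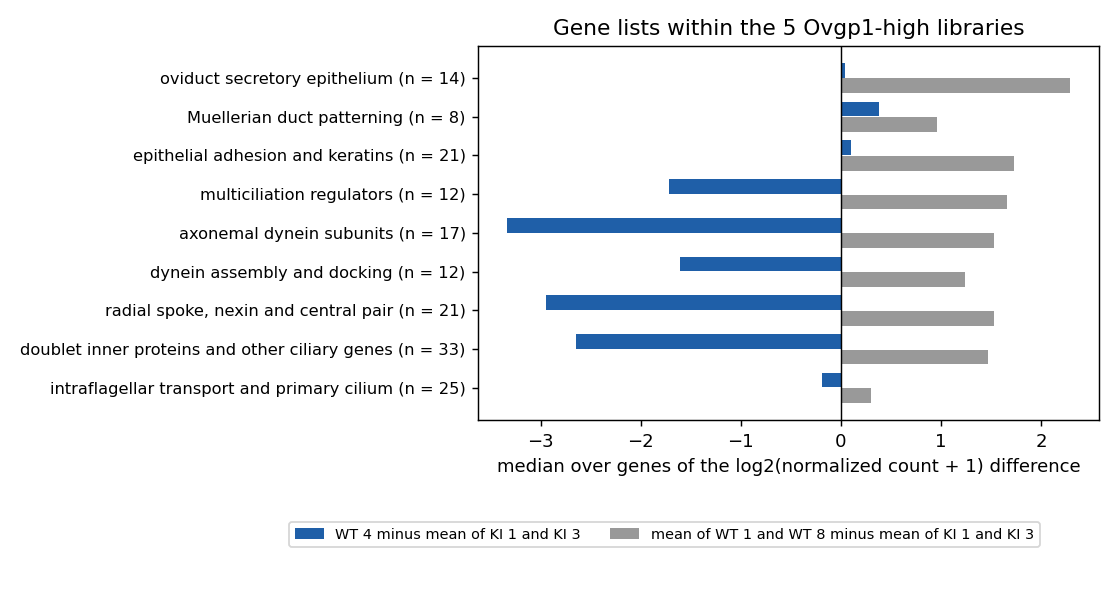
Median over the genes of each list of the difference in log2(normalized count + 1) between WT 4 and the mean of HSD17B1-KI 1 and HSD17B1-KI 3 (blue), and between the mean of WT 1 and WT 8 and the same pair (grey). The blue bars of the axonemal dynein, spoke and doublet lists lie between -2.65 and -3.34, and that of the secretory list at 0.04. Of the 14 secretory genes, 1 was at least 4-fold lower in WT 4 and 2 at least 4-fold higher.

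The 5 middle libraries were unlike each other and in part overlapped the sides. The listed genes of motile cilia made up 0.0946% of the normalized total in WT 7, above the 0.0403% of WT 4 on the high side. In HSD17B1-KI 5 they made up 0.0316%, within the 0.0295 to 0.0339% of the low side. Of the 729 higher genes, WT 7 was above every low library for 636 and WT 2 for 625, while HSD17B1-KI 6 was so for 476, HSD17B1-KI 2 for 282 and HSD17B1-KI 5 for 244. Over all genes tested the shares were 15.3 to 24.2%. For the genes of motile cilia the numbers in this order were 74, 76, 50, 35 and 30 of 83. WT 7 and WT 2 had 906 and 1056 normalized counts of Dnah3, near HSD17B1-KI 3 at 1181, and HSD17B1-KI 6, with 4185 normalized counts of Ovgp1, had 53.6. HSD17B1-KI 7, last in the order, still had 108 normalized counts of Ovgp1.

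The genotypes were compared by a fit that did not use the ranking, limma-trend on all 15 mice. In the 8 lists of oviduct, epithelium, multiciliation and motile cilia, 138 genes were tested. Of these, 0 had an adjusted p under 0.05 with limma-trend, beside 46 of all 21525 genes. An unadjusted p under 0.05 was found for 6 (4.35%), beside 2153 of all 21525 genes. EdgeR on the recovered reads also called 0, beside 50 of all 21525 genes. It had 25 (18.1%) at an unadjusted p under 0.05, beside 2510 of all 21525 genes (11.7%). DESeq2 called 1, Pax2, as lower in HSD17B1-KI, beside 455 of all 21525 genes. It had 33 of the 138 (23.9%) at an unadjusted p under 0.05, beside 2794 of all 21525 genes. Nothing is read from the counts of called genes among the 138, since the shares of all genes called were small. Over all 21525 genes limma-trend called 45 (0.209%) higher and 1 (0.00465%) lower in HSD17B1-KI. When 1 mouse was left out these 46 became 6 to 139. The median log2 fold change of the 138 genes was -0.73, against -0.02 for all genes, and single genes had wide standard errors. It was 0.15 without WT 1 and WT 8, and -1.32 with edgeR on the recovered reads of all mice. For Ovgp1 the mean was 46139 ± 76668 (SD, n = 8) in WT and 4887 ± 6733 (SD, n = 7) in HSD17B1-KI mice, with a log2 fold change of -1.96 ± 1.77 (SE) and an adjusted p of 0.762 by limma-trend. Foxj1 had a log2 fold change of -0.82 ± 1.75 (SE) and an adjusted p of 0.914 by limma-trend, and Pax8 had a log2 fold change of -0.95 ± 1.16 (SE) and an adjusted p of 0.839 by limma-trend. The direction of these 2 genes depended on WT 1 and WT 8, since without both libraries their log2 fold changes were 0.82 and 0.38 (limma-trend adjusted p = 0.949 and 0.964).

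**Figure D5:**
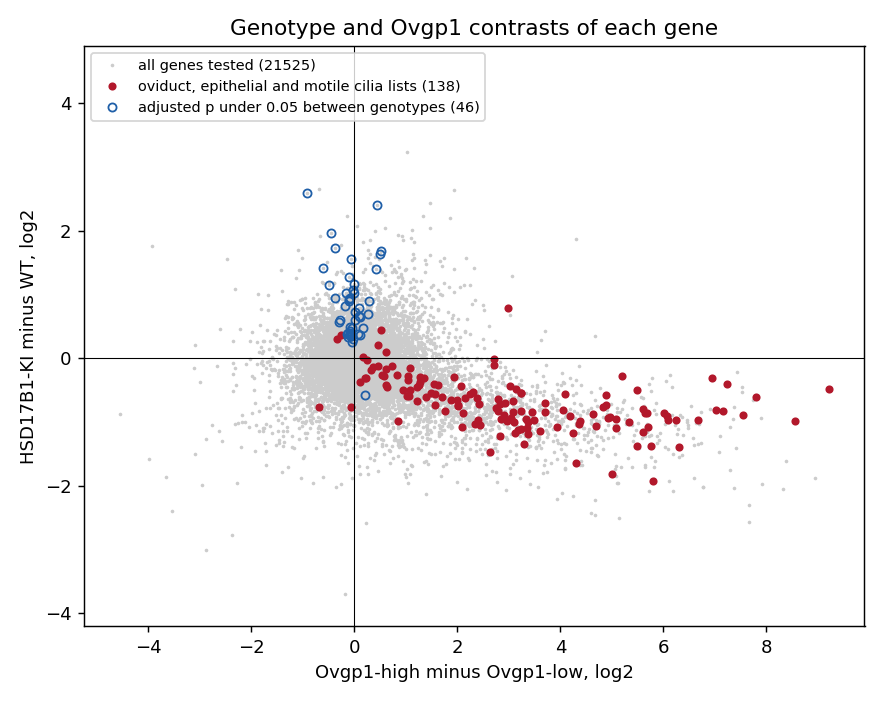
Log2 fold change between HSD17B1-KI and WT against the difference between Ovgp1-high and Ovgp1-low libraries for 21525 genes, with the 138 tested genes of the oviduct, epithelial and motile cilia lists in red and the 46 genes with an adjusted p under 0.05 between genotypes circled in blue. Both axes use the same mice, and the 46 circled genes lie between -0.91 and 0.53 on the horizontal axis.

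Because both Ovgp1 sides held 2 HSD17B1-KI and 3 WT mice, a gene that fully separates the genotypes has to overlap between the sides. The differences of the 46 genes between the sides ranged from -0.91 to 0.53 with a median of -0.06, and nothing is read from their overlap. With the mean log2 value of the genes of motile cilia of each mouse as a covariate, limma-trend called 32 genes, 29 of the 46 and 3 others, and all 46 kept their sign. The 3 gained genes were Casr, the calcium-sensing receptor, Aqp2, a water channel, and Nebl, a filament protein. Casr had 72.0, 43.5, 34.5, 18.5, 2.44, 42.9 and 34.7 normalized counts in HSD17B1-KI 1 to 7 and at most 8.43 in WT. Without the covariate it had a log2 fold change of 3.24 ± 0.64 (SE) and an adjusted p of 0.0539 by limma-trend. For Aqp2 and Nebl the limma-trend adjusted p-values without the covariate were 0.0920 and 0.0921. The paper, which compared the genotypes with DESeq2, already reported Casr and Aqp2 among its most upregulated genes.

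The 17 genes that were lost with the covariate had adjusted p-values of 0.0502 to 0.0733 in that fit. Among them was Hadhb, a subunit of the mitochondrial trifunctional protein of fatty acid oxidation, which without the covariate had a log2 fold change of 0.43 ± 0.08 (SE) and an adjusted p of 0.0355 by limma-trend. With the covariate its log2 fold change was 0.42 ± 0.08 (SE). Another was Adh1, an alcohol dehydrogenase, with a log2 fold change of 0.94 ± 0.18 (SE) and an adjusted p of 0.0468 by limma-trend without the covariate and a log2 fold change of 0.93 ± 0.18 (SE) with it. Hadhb had 6161 to 9299 normalized counts on the high side and 7033 to 10071 on the low side, ranges that overlapped. Without the 2 libraries with the most Ovgp1, limma-trend called 9 genes between the genotypes, 8 of them among the 46, and without the 5 highest it called 0 with 1463 at an unadjusted p under 0.05, in fits of 13 and 10 mice. In both fits, 0 of the listed genes of the oviduct programme were called, from which nothing is read, since the libraries were dropped by their Ovgp1.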

How the data were processed

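Ovarian mRNA of 7 HSD17B1-KI and 8 WT mice was sequenced, 1 library per mouse. The authors trimmed reads, aligned them to mm10 with STAR 2.7.3 and deposited a normalized signal, which is counts divided by size factors, for 27907 genes. The counting program, annotation and filters are not given in the sources used here. Division by the smallest step of a library gave whole reads (within 0.1) for 100% of values, 26544745 to 72362981 reads per mouse, and edgeR and DESeq2 were run on these. Depth limits genes under about 10 normalized counts.

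Libraries were ranked by Ovgp1. The 21525 genes that averaged 2 or more normalized counts were compared as log2(normalized count + 1), without a test between the sides. Genotypes were compared with limma-trend (two-sided, Benjamini-Hochberg adjustment over all genes, threshold 0.05). Replicates are separate mice. The members and lists were chosen with earlier results of these data known. In 18 lists, 244 of 245 genes were in the table, 9 found by Ensembl identifier under older symbols. Named genes are Ovgp1, Foxj1 and Pax8, up to 4 per list with a mean of at least 10 and the largest difference, list members of opposite sign, the 10 highest and 5 lowest without overlap, and up to 5 gained and 5 lost with the covariate. Alternatives were other rankings, side sizes, pseudocounts (0.1, 10), filters, upper quartile scaling, each genotype alone, edgeR, DESeq2, a replicate block, and libraries left out, of which leaving out the 2 highest was chosen after seeing the data. The fit was tested on simulated data. A gene that the rule for WT 4 would name is not reported here. Positions are from GENCODE M21. Tools were Python 3.11.15 with pandas 2.3.3, NumPy 2.4.6 and matplotlib 3.10.9, and R 4.3.3 with DESeq2 1.42.0, edgeR 4.0.16 and limma 3.58.1.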

Additional observations from a re-analysis of the deposited data

Results flagged for a closer look

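For Ovgp1, Foxj1, Pax8 and the summed counts of the 18 lists, each genotype was checked for a mouse whose gap to its neighbour was large for the range of its group. Of 42 groups checked, 1 stood out, and chance alone flags about 1 in 20. It was the oocyte list in WT 4, whose summed log2(normalized count + 1) was 13.78 against 13.30 in the next WT mouse, a gap of 0.666 of the range of the 8 WT mice. WT 4 is also the high library with the lowest counts of Foxj1.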

How the results depend on the processing

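The number of genes called between the genotypes, 46 with limma-trend, was 28 with no filter, 455 with DESeq2, 9 without the 2 libraries highest in Ovgp1 and 0 without the 5 highest. It ranged from 6 to 139 when 1 library was left out at a time, the highest being without HSD17B1-KI 5 and the lowest without HSD17B1-KI 2, and it was within 1.5 times of 46 only without HSD17B1-KI 7 (38) or WT 7 (31). With the replicate block on the numbers of the labels it was 0, with 1735 genes at an unadjusted p under 0.05, over the 14 mice with numbers 1 to 7. The numbers did not pair the mice, since the correlation of deviations within a number ranged from -0.55 to 0.55 and was above 0.1 in 2 of 7, so this block result says nothing of the size of an effect. The count of oviduct and cilia genes called was 0 in all fits but DESeq2, with 1. With limma-trend this 0 of 138 stands beside 46 of all 21525 genes, too small a share to read it against. Nothing is read from the 0 with the motile cilia covariate, which is the mean of genes on these same lists. The same holds for the fits without the libraries highest in Ovgp1, which were dropped by a gene of this programme. The log2 fold change of Foxj1 turned to 0.45 with the motile cilia covariate and to 0.82 without the 2 highest libraries, and that of Pax8 to 0.18 without the 5 highest and 0.38 without the 2 highest.

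Between the Ovgp1 sides, genes higher without overlap and by at least 1 numbered 396 with 7 libraries on each side and 591 and 1458 within HSD17B1-KI and WT alone, against 729. They ranged from 706 to 1184 when 1 library was left out, the highest being without WT 4. Lower genes, 59, numbered 23 and 12 when the libraries were ranked by Foxj1 or Pax8, 2 with 7 on each side, 31 with a pseudocount of 10, 145 and 313 within HSD17B1-KI and WT alone, 191 without the 2 highest, and 54 to 189 when 1 library was left out, and the cause was not tested. Sides with fewer libraries part without overlap more easily, so counts from sides of unlike size do not show a stronger or weaker difference. The difference of Pax8 was 3.35 within HSD17B1-KI alone. The median of the genes of motile cilia stayed between 2.08 and 3.89 over the alternatives. Medians of the lists kept their sign throughout, except smooth muscle (-0.18 to 0.10 when 1 library was left out), but not their size. Within HSD17B1-KI alone they were 1.25 for secretory, 0.86 for epithelial, 0.11 for Muellerian and 1.55 for multiciliation genes, and without WT 1 and WT 8 they were 1.15 for secretory, 0.38 for Muellerian and 1.95 for multiciliation genes, with that of epithelial genes also under its 1.94. Depth limits genes near 0 counts on the low side.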
